A study of Drosophila melanogaster with 9 samples.

Results

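Wingless (Wg) is the main Wnt ligand of the fly wing, and genes of its pathway were examined in larval wing pouches with and without hairpin RNAs against the noncoding RNA CR32027. A list of 10 was taken by FlyBase symbol: the ligand gene wg, the secretion gene wls, the glypican gene dlp, the receptor genes fz, fz2, fz3 and arr, and the effector genes arm, lgs and pan. Rows of the deposited table matched 9 of these 10 genes, among 15682 genes in all, and wg itself was not analysed here. All 9 passed the filter of a mean of at least 1 RPKM (reads per kilobase of gene, scaled to library size), as did 7437 genes in the whole table. In every group the mothers brought w1118, Bx-GAL4 (also called MS1096-GAL4, Bloomington stock 25706), a driver active in the wing pouch, and UAS-dicer2, which adds Dicer-2 for hairpin processing. The fathers came from UAS-hairpin line 26860 of the Vienna collection (CR32027-IR1), from line 103512 (CR32027-IR2), or from the wild-type strain OreR, so OreR offspring carried driver and Dicer-2 without a hairpin. Wing discs of male third-instar wandering larvae raised at 25 °C were dissected 30 per genotype, their nota were removed, and 3 libraries were made for each of the 3 genotypes. Each hairpin is represented by 1 line and OreR has another stock background, so hairpin and background cannot be told apart. RNA was extracted in triplicate, and whether the triplicates derive from separate crosses is not stated. The p-values thus refer to variation among these libraries, which may be technical.

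Wg carries a lipid that Porcupine attaches, and the membrane protein Wntless (Wls, also called Evi) escorts it to the cell surface. There, glypicans such as Dally and Dally-like (Dlp) hold it near the epithelium, and it binds a Frizzled receptor together with the co-receptor Arrow (Arr). Signalling stops a destruction complex from degrading Armadillo (Arm, fly β-catenin), which then joins Pangolin (Pan, fly TCF) on target genes through Legless (Lgs) and Pygopus. In the wing disc Wg is made along the dorsoventral margin, where it directs the proneural genes of the margin and promotes growth and identity of the pouch. It is also known there to lower transcription of fz2 and dlp and to raise that of fz3.

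The libraries held 25070343 to 36512316 reads, as recovered from the steps of the RPKM values. The targeted RNA, CR32027, was at 2.38, 3.30 and 2.53 RPKM in the OreR libraries, 4.46, 3.34 and 2.93 in the CR32027-IR1-labelled ones, and 0.408, 1.12 and 1.19 under CR32027-IR2. It was thus lower in CR32027-IR2 than in OreR (33.1% of the OreR mean; log2 change -0.99 on the log2(RPKM + 1) scale and -1.78 on recovered reads; limma, adjusted p = 0.0171 on the former; exact permutation p = 0.1, the smallest that 3 against 3 libraries can give). Without OreR replicate 2 that call was lost (adjusted p = 0.0778). It was not lower in the CR32027-IR1-labelled libraries (log2 change 0.29; adjusted p = 0.348), so directions given for those rest on the label alone. Those 3 libraries also differed most among themselves: the median coefficient of variation over all genes tested was 7.87%, against 5.64% in OreR and 4.82% in CR32027-IR2. Pouch markers were present (nub, vg, Dll, pdm2 and Doc1 together at 45.3 to 55.6 RPKM). The muscle precursor genes twi, Mef2, Him and zfh1 together reached 1.41 RPKM at most. The 5 genes listed as notum markers were together at 8.89 to 10.9 RPKM. Of these, ara had means of 7.20 to 8.26, eyg of 1.25 to 1.52 and ush of 0.72 to 0.78, while pnr and tup were at or near 0. Most of that sum was thus ara, and whether it reflects remaining notum was not tested. RPKM here is per whole gene length, introns included, so sums of different marker sets do not compare amounts of RNA. The summed pouch markers were at 54.4 to 55.6 RPKM in OreR, 45.3 to 48.0 in the CR32027-IR1-labelled libraries and 48.6 to 52.1 in CR32027-IR2, and the tracheal gene trh was at 4.48 to 5.12, 3.21 to 3.91 and 3.57 to 3.77. Against OreR, nub, pdm2 and Doc1 were called lower in the CR32027-IR1-labelled libraries and vg and Dll were not. No pouch marker was called in CR32027-IR2, and trh was called lower in both hairpin genotypes. The posterior compartment gene en averaged 25.8 RPKM in OreR, 25.0 in the CR32027-IR1-labelled libraries and 18.7 in CR32027-IR2, where it was called lower. The other matched marker of wing disc epithelium, sd, averaged 22.8, 23.1 and 23.3 RPKM in the same order and was called in no comparison. The part of these shifts in the pathway genes was not tested. In such bulk samples, fewer cells of a type and less RNA per cell cannot be told apart.

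The gene for the Wg escort, wls, was lower in the CR32027-IR1-labelled libraries than in both other genotypes. Its level was 61.3, 62.8 and 63.0 RPKM in the OreR libraries, 44.5, 44.5 and 43.4 in those labelled CR32027-IR1, and 58.6, 58.7 and 60.99 in CR32027-IR2. The CR32027-IR1-labelled libraries lay apart from all 6 others, and the spread within each genotype was small, with coefficients of variation of 1.44% to 2.30%. The mean there was 70.8% of the OreR mean, a log2 change of -0.49 ± 0.04 (SE of the limma fit, n = 3 libraries per genotype; adjusted p = 0.000113). Of the 7437 genes tested, 24 had a smaller p in this comparison. Compared with CR32027-IR2, wls was lower by a log2 difference of -0.42 ± 0.04 (adjusted p = 0.000194 in the same limma fit). CR32027-IR2 itself had 95.3% of the OreR mean of wls, and although its libraries lay just below those of OreR, the difference did not pass (log2 change -0.07, 95% interval -0.16 to 0.02; adjusted p = 0.403). The values rest on 4016 to 6499 reads per library, for which counting error alone is 1.58% or less.

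**Figure D1:**
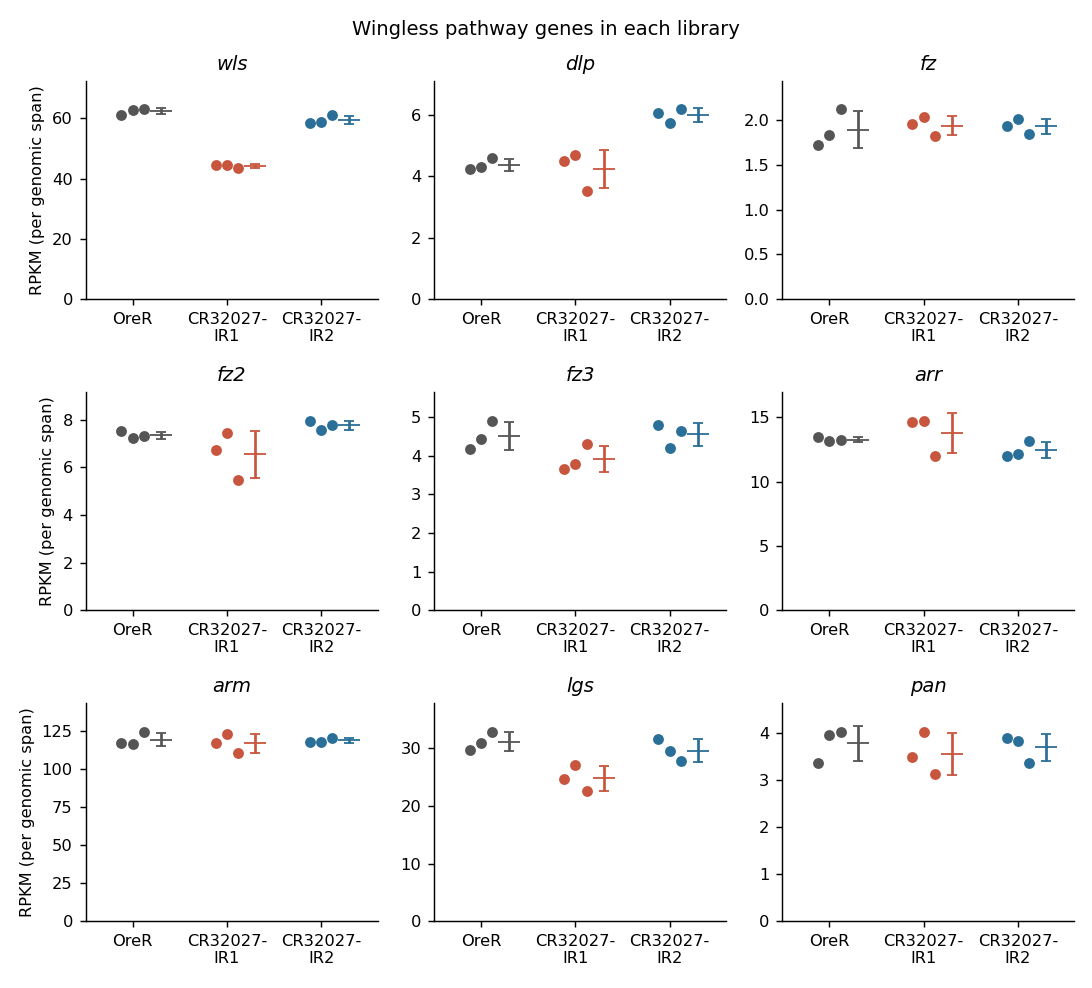
RPKM of each of the 9 measured Wingless pathway genes in the 3 libraries of each genotype (points), with the mean and SD beside them. The wls values labelled CR32027-IR1 (43.4 to 44.5 RPKM) lie below all others, and the dlp values of CR32027-IR2 (5.75 to 6.18 RPKM) lie above all others.

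For dlp, which encodes a glypican that binds Wg at the cell surface, CR32027-IR2 was the genotype that stood apart. Its level was 4.23, 4.29 and 4.58 RPKM in OreR, 6.07, 5.75 and 6.18 in CR32027-IR2, and 4.48, 4.70 and 3.53 in the CR32027-IR1-labelled libraries. All CR32027-IR2 libraries were above the 6 others. The mean was 137% of that in OreR (log2 change 0.38 ± 0.09; limma, adjusted p = 0.04). Against CR32027-IR2, the CR32027-IR1-labelled libraries had 70.7% of the dlp level (log2 difference -0.42 ± 0.09; adjusted p = 0.00975). They were not separated from OreR (log2 change -0.04, 95% interval -0.24 to 0.16; adjusted p = 0.794). The rise over OreR stood close to the threshold. It was not called without CR32027-IR1 replicate 1, without any 1 of the 3 CR32027-IR2 libraries or without any 1 of the 3 OreR libraries (adjusted p = 0.0614 to 0.135), nor with the replicate block (adjusted p = 0.105). On the recovered reads, where the added constant of 1 RPKM plays no part, the log2 change was 0.46 ± 0.09 (limma voom, adjusted p = 0.0197). The difference between the hairpin genotypes passed under every alternative that retained dlp (adjusted p = 0.00495 to 0.0377).

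The other fly glypican gene, dally, also had its highest values in CR32027-IR2. It was at 5.47, 5.51 and 5.47 RPKM in OreR and at 7.69, 8.04 and 8.09 in CR32027-IR2. The groups did not overlap, and dally rose (log2 change 0.46; limma, adjusted p = 0.0104), a call lost without CR32027-IR2 replicate 2 (adjusted p = 0.0524). In the CR32027-IR1-labelled libraries dally was at 7.03, 7.02 and 5.57 RPKM, all above OreR but widely spread (log2 change 0.21; adjusted p = 0.113). Swim, which encodes a secreted protein that binds Wg, fell under the RPKM filter at 0.278 ± 0.019 RPKM in CR32027-IR2 and 0.103 ± 0.012 in OreR (mean ± SD). On recovered reads (328 over the CR32027-IR2 libraries, 117 over OreR) it was 2.67-fold higher in CR32027-IR2 than in OreR (limma voom, adjusted p = 0.00506). In the CR32027-IR1-labelled libraries Swim did not differ from OreR (1.00-fold; limma voom, adjusted p = 0.998).

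None of the receptor genes was called in any comparison, by limma or by limma voom on recovered reads. With no adjustment for multiple testing, limma separated fz2 between the hairpin genotypes at the 0.05 level, which 29.9%, 18.3% and 36.4% of all genes reached in the 3 comparisons. On recovered reads, limma voom also put fz3 of the CR32027-IR1-labelled libraries under that level, against OreR (unadjusted p = 0.0314) and against CR32027-IR2 (0.0242). The Frizzled receptor gene fz2 was at 7.52, 7.23 and 7.31 RPKM in OreR, 6.75, 7.44 and 5.49 in the CR32027-IR1-labelled libraries, and 7.97, 7.59 and 7.78 in CR32027-IR2. The CR32027-IR2 values lay above all others, by little, and the CR32027-IR1-labelled libraries spread the most (coefficient of variation 15.1%). Between the hairpin genotypes the log2 difference of fz2 was -0.22 (95% interval -0.42 to -0.03; limma, adjusted p = 0.098), which passed only without CR32027-IR1 replicate 2 (-0.31; adjusted p = 0.0211) and shrank to -0.12 without CR32027-IR1 replicate 3. The log2 change of fz2 against OreR was -0.15 (adjusted p = 0.283) in the CR32027-IR1-labelled libraries and 0.07 (adjusted p = 0.758) in CR32027-IR2.

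The gene fz3 encodes a Frizzled family protein that Wg signalling is known to induce in the wing. It was at 4.18, 4.44 and 4.91 RPKM in OreR, 3.66, 3.78 and 4.30 in the CR32027-IR1-labelled libraries, and 4.80, 4.22 and 4.66 in CR32027-IR2. CR32027-IR1 replicates 1 and 2 were below all other libraries and replicate 3 overlapped OreR (log2 change -0.17, 95% interval -0.34 to 0.01; limma, adjusted p = 0.195). In CR32027-IR2 the log2 change of fz3 was 0.01 (adjusted p = 0.964). For fz, the founding Frizzled receptor, which also acts in planar polarity, all 9 libraries lay between 1.73 and 2.12 RPKM. The genotypes overlapped fully, and its log2 changes against OreR were 0.02 in both comparisons (95% intervals -0.15 to 0.20 and -0.16 to 0.20).

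The co-receptor gene arr was at 13.4, 13.1 and 13.2 RPKM in OreR, 14.6, 14.7 and 11.99 in the CR32027-IR1-labelled libraries, and 12.01, 12.1 and 13.2 in CR32027-IR2. Its OreR values lay within the range of the others. The log2 change was 0.05 (adjusted p = 0.733) in the CR32027-IR1-labelled libraries and -0.09 (adjusted p = 0.638) in CR32027-IR2. Between the hairpins it was 0.13 (limma, adjusted p = 0.24) and passed only without CR32027-IR1 replicate 3 (0.22; adjusted p = 0.0215). That library was the lowest of its genotype for 8 of the 9 genes, while over all genes tested it was the lowest for 35.4%. The OreR libraries were uneven too: replicate 1 was the lowest for 6 of the 9 and replicate 3 for 0, beside 38.4% and 34.1% of all genes.

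Of the effectors, lgs was lower in the CR32027-IR1-labelled libraries. This gene, which encodes the fly BCL9 protein that links Armadillo to Pygopus, was at 29.7, 30.8 and 32.8 RPKM in OreR, 24.6, 27.0 and 22.6 in those libraries, and 31.5, 29.5 and 27.7 in CR32027-IR2. The CR32027-IR1-labelled libraries lay below all 6 others. Their mean was 79.5% of that in OreR (log2 change -0.32 ± 0.07; limma, adjusted p = 0.0215), and the log2 difference from CR32027-IR2 was -0.25 ± 0.07 (adjusted p = 0.0399). The call against OreR was lost without CR32027-IR1 replicate 1 (0.0665), OreR replicate 2 (0.0656) or OreR replicate 3 (0.0706), with the replicate block (0.0542) and with library weights (limma, adjusted p = 0.111). The call against CR32027-IR2 was lost without CR32027-IR1 replicate 1 or 3, CR32027-IR2 replicate 1 or 2, or OreR replicate 1 or 2 (adjusted p = 0.0502 to 0.13). It was also lost with the replicate block (0.0775), with library weights (0.142), with no filter (0.073) and with only these genotypes fitted (limma, adjusted p = 0.0712). In CR32027-IR2 lgs had 95.1% of the OreR mean (log2 change -0.07, 95% interval -0.24 to 0.10).

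The gene of the pathway's central effector, arm, was called in no comparison. It was at 117, 116 and 124 RPKM in OreR, 117, 123 and 111 in the CR32027-IR1-labelled libraries, and 118, 118 and 121 in CR32027-IR2. The ranges overlapped in every pair of genotypes, and the log2 change was -0.03 (95% interval -0.14 to 0.08) in the CR32027-IR1-labelled libraries and -0.01 (95% interval -0.12 to 0.11) in CR32027-IR2. Armadillo is controlled mainly through the stability of its protein, which RNA levels do not measure. The TCF gene pan was at 3.36, 3.96 and 4.02 RPKM in OreR, 3.49, 4.01 and 3.13 in the CR32027-IR1-labelled libraries, and 3.90, 3.83 and 3.36 in CR32027-IR2. Its genotypes overlapped throughout, with log2 changes of -0.07 (95% interval -0.29 to 0.14) and -0.03 (95% interval -0.24 to 0.19) against OreR.

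**Figure D2:**
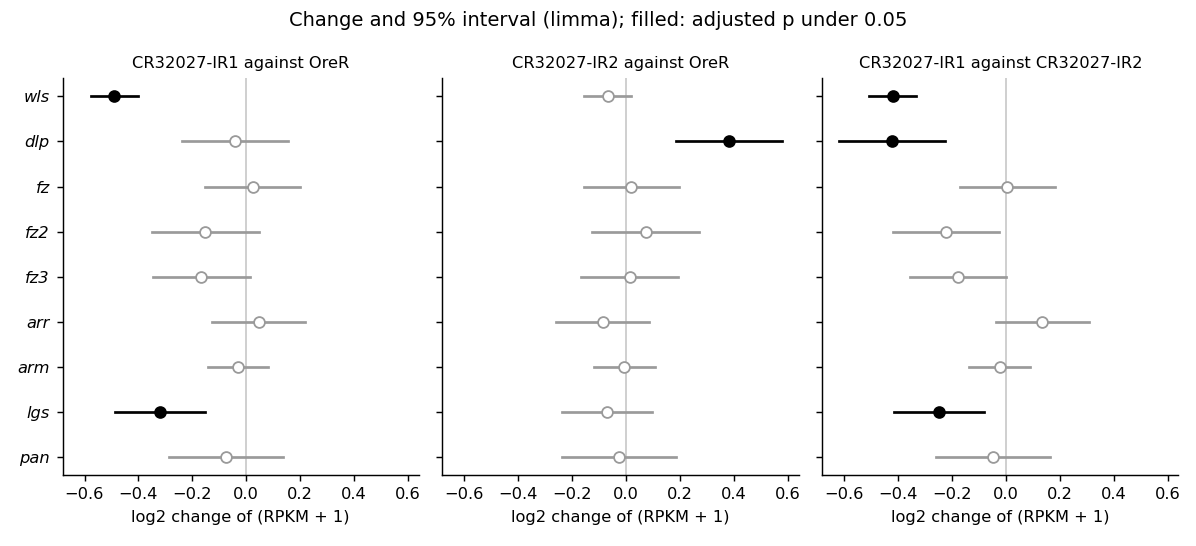
Log2 change of (RPKM + 1) with its 95% interval from the limma fit for each gene in each comparison; filled points have an adjusted p under 0.05. The wls intervals lie below 0 in both comparisons of the CR32027-IR1-labelled libraries, the dlp interval above 0 in CR32027-IR2 against OreR, and those of arm and fz include 0 throughout.

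Counted together, 2 of the 9 genes were lower (wls and lgs) and 0 were higher in the CR32027-IR1-labelled libraries than in OreR. Over all genes tested 13.7% were called in that comparison, 7.61% as lower and 6.09% as higher. In CR32027-IR2 1 gene was higher (dlp) and 0 were lower, beside 5.15% of all genes called, 2.93% as higher and 2.22% as lower. Between the hairpins 3 were lower in the CR32027-IR1-labelled libraries (wls, dlp and lgs) and 0 higher, beside 21.9% of all genes called, 9.57% as lower and 12.3% as higher. A single gene makes up 11.1% of the 9, and the counts were not tested against those shares. On recovered reads the same 6 calls passed in limma voom, beside 13.3%, 5.47% and 20.9% of all genes. The median log2 change of the 9 was -0.07, -0.01 and -0.18 in these comparisons, beside 0.01, -0.02 and 0.03 over all genes. The comparisons share libraries, so their values are not independent of each other. By the plain criterion that the 3 libraries of a genotype lie apart from those of the other, 2, 3 and 4 of the 9 genes were separated, beside 30.9%, 28.1% and 39.3% of all genes.

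Because the deposited values divide reads by the whole genomic span of a gene, introns included, they do not rank these genes by transcript level. Exons make up 4.05% of the span of fz, 7.86% of fz2 and 9.64% of dlp, but 77.0% of lgs and 85.6% of wls. Recovered reads were therefore also set against the merged exons of the BDGP6 annotation. On this scale (RPKM per exonic rather than genomic length), OreR had 310 ± 11.5 for arm (mean ± SD, n = 3), 93.5 ± 1.89 for fz2, 72.8 ± 1.10 for wls and 65.1 ± 0.795 for arr. Below these came fz with 46.8 ± 4.98, dlp with 45.3 ± 1.93, lgs with 40.4 ± 2.07, fz3 with 16.1 ± 1.32 and pan with 11.7 ± 1.14. The ratio of arm to fz2 on this scale was 3.31. Whether reads in introns were counted is not stated, and if so they raise the values of genes with little exonic sequence, fz, fz2 and dlp above all. Only fz and dlp had overlapping OreR ranges among neighbours in this order. In CR32027-IR2 dlp stood at 62.2 ± 2.32, above fz (47.7 ± 2.12) and next to arr (61.03 ± 3.13), with no test made between genes. In the CR32027-IR1-labelled libraries wls stood at 51.5 ± 0.742, below arr (67.6 ± 7.63).

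**Figure D3:**
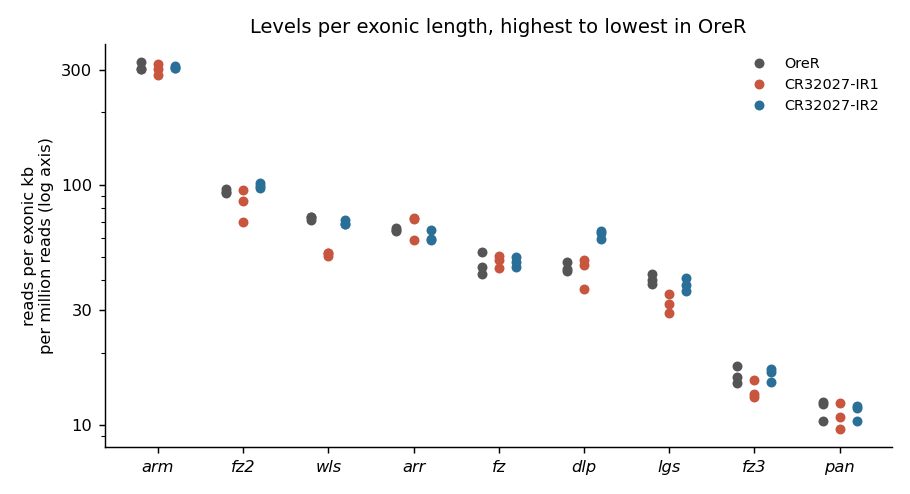
RPKM per exonic length (log axis) for the 9 genes, ordered by their OreR mean, with 1 point per library and genotypes by colour. The arm values lie between 287 and 323, those of pan between 9.65 and 12.4, and the wls points labelled CR32027-IR1 (50.7 to 52.0) sit below those of OreR (71.6 to 73.5).

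The called genes lie at separate places in the genome, given here in BDGP6 coordinates, a later build than the dm3 of the submitters' processing notes. The wls gene (FBgn0036141) is on the minus strand of chromosome arm 3L from 11166620 to 11169625. The dlp gene (FBgn0041604) is on the plus strand of 3L from 14632601 to 14671609, and lgs (FBgn0039907) is on the minus strand of chromosome 4 from 436957 to 443911. Beside wls, Alg10 shares 1 base with it on the opposite strand. Alg10 was at 34.1 ± 1.09 RPKM in OreR and 33.2 ± 1.85 in the CR32027-IR1-labelled libraries (limma, adjusted p = 0.703), and fell to 26.9 ± 1.13 in CR32027-IR2 (adjusted p = 0.00844). The 2 nearest tested genes on each side of wls that do not overlap it, IRSp53, lncRNA:CR43989, Adck5 and Plod, did not pass against OreR in either hairpin genotype. Adck5 and Plod were higher in the CR32027-IR1-labelled libraries than in CR32027-IR2 (log2 differences 0.35 and 0.34; limma, adjusted p = 0.0214 and 0.012), while wls was lower. The neighbours of dlp (CG9628, RecQ5, CG4914 and CG42507) and of lgs (PMCA, Hcf, CaMKI and Taf3) passed in no comparison. Of the genes nested within the spans of fz, fz2 and arr that were measured, each had fewer than 5 reads per library on average (CG13482, 4.44; lncRNA:CR43893, 0.222; CG43192, 4.11). At one end arm shares 82 bases with mRpL16 on the opposite strand, so reads there could belong to either gene.

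Over the 9 libraries the genes whose log2 values followed wls most closely were CG3649 (Pearson r = 0.988), Ir40a (0.987) and slgA (0.987). Each was lowest in the CR32027-IR1-labelled libraries. CG3649 was at 8.50 ± 0.671 RPKM in OreR, 0.558 ± 0.0316 there and 5.82 ± 0.626 in CR32027-IR2. The values differed less for slgA, a proline dehydrogenase gene, at 13.3 ± 0.397 RPKM in OreR, 9.05 ± 0.357 there and 12.8 ± 0.217 in CR32027-IR2. Closest to dlp were Sarm (r = 0.974), sn (0.972) and cib (0.970), the last 2 encoding the actin regulators fascin and Ciboulot. Closest to lgs were Upf2 (0.984), stau (0.982) and Lsd-2 (0.970). These are the highest values among 7437 genes over 9 libraries that form 3 genotypes, and are given as a description.

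Further genes of the pathway were counted by list, 55 matched genes beyond the 9, of which 47 passed the filter. In the CR32027-IR1-labelled libraries 5 of the 47 were lower and 2 higher than in OreR. In CR32027-IR2 1 was lower and 1 higher. Their median log2 change was -0.04 and 0.00, beside 0.01 and -0.02 over all genes. The shares of all genes called were 13.7% and 5.15%.

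Among 12 tested genes of Wnt secretion and extracellular handling, botv and sotv fell and eca rose in the CR32027-IR1-labelled libraries, while dally rose and sotv fell in CR32027-IR2. Over all genes tested, 13.7% and 5.15% were called in these 2 comparisons. The products of botv and sotv are glycosyltransferases that build the heparan sulfate chains of Dally and Dlp. The level of botv was 11.4, 10.7 and 11.2 RPKM in OreR and 8.05, 7.99 and 8.65 in the CR32027-IR1-labelled libraries, with no overlap (log2 change -0.39; limma, adjusted p = 0.00279). In CR32027-IR2 botv was at 10.03, 9.38 and 10.3 (log2 change -0.15; adjusted p = 0.186). The sotv values were 9.34, 7.995 and 9.12 RPKM in OreR, 6.46, 6.66 and 7.01 in the CR32027-IR1-labelled libraries, and 6.78, 6.46 and 6.84 in CR32027-IR2. Both hairpin genotypes lay below OreR for sotv (log2 changes -0.35 and -0.35; adjusted p = 0.00964 and 0.0161), sharing the same OreR libraries. The sotv call in CR32027-IR2 was lost without any 1 of its 3 libraries or without OreR replicate 1 or 3 (adjusted p = 0.0513 to 0.0796), and that in the other hairpin genotype with library weights (0.109). The sulfotransferase gene sfl, which modifies the same chains, had 1206 to 1938 reads per library but a mean under 1 RPKM. On recovered reads it was lower in the CR32027-IR1-labelled libraries (0.764-fold; limma voom, adjusted p = 0.0201) and not called in CR32027-IR2 (0.95-fold; adjusted p = 0.749). Of the other list genes under the RPKM filter that limma voom tested, Wnt10, Ror and ct were called in no comparison. The rise of eca, which encodes a cargo protein of early secretion, was small (log2 change 0.21; limma, adjusted p = 0.04) and lost without any library except OreR replicate 1 (0.051 to 0.118). The acyltransferase gene por and the retromer genes Vps35, Vps26 and Vps29, which serve the lipid attachment to Wg and the recycling of Wls, passed in no comparison.

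**Figure D4:**
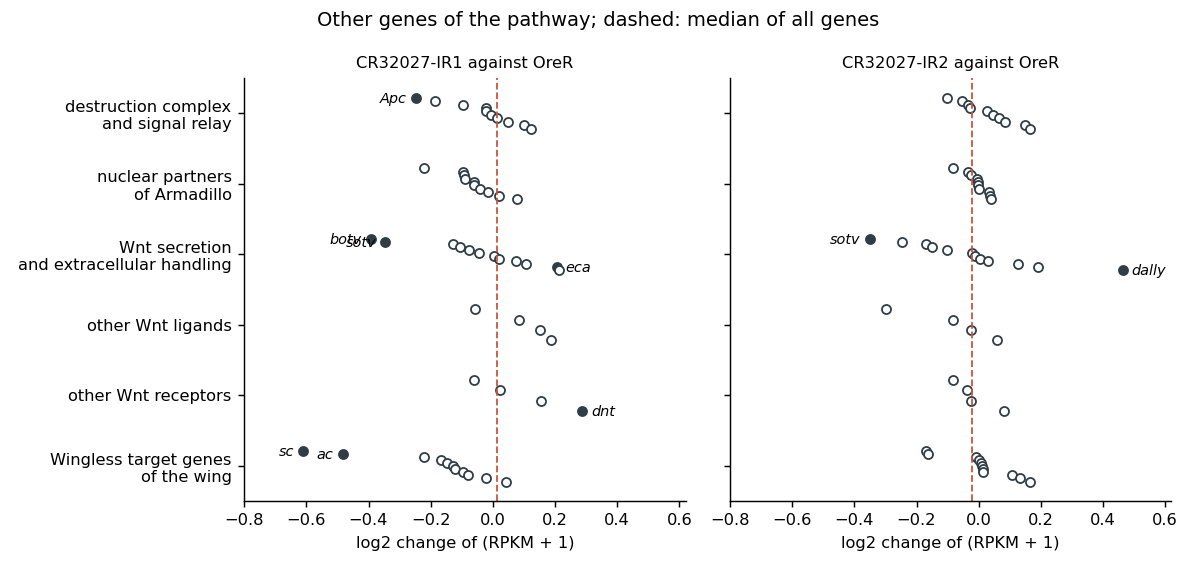
Log2 change of (RPKM + 1) against OreR for the tested genes of each list, with called genes filled and named and the median of all genes dashed; nkd, Notum and nmo stand in 2 lists, and fz3 is included. Named genes lie at -0.61 (sc) to 0.29 (dnt) for CR32027-IR1, and dally (0.46) and sotv (-0.35) are named for CR32027-IR2.

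Of 11 tested target genes of Wg signalling in the wing, ac and sc fell in the CR32027-IR1-labelled libraries, and 0 passed in CR32027-IR2 against OreR. Over all genes tested, 13.7% and 5.15% were called in these 2 comparisons. The proneural genes ac and sc specify sensory organ precursors. Their log2 changes were -0.48 and -0.61 (limma, adjusted p = 0.00268 and 0.00423), and neither lost its call when a library was left out. Against CR32027-IR2 both were lower as well (limma, adjusted p = 0.000535 for ac and 0.00281 for sc). The feedback genes nkd and Notum were at 7.22 ± 0.394 and 5.37 ± 0.983 RPKM in OreR, 7.15 ± 1.10 and 4.83 ± 0.914 in the CR32027-IR1-labelled libraries, and 8.21 ± 0.424 and 4.64 ± 0.674 in CR32027-IR2. Dll, vg, sens, nmo, Myc and hth likewise passed in no comparison. The median log2 change of the list was -0.13 in the CR32027-IR1-labelled libraries and 0.01 in CR32027-IR2, beside 0.01 and -0.02 over all genes. The list includes fz3 and was not sorted by whether Wg raises or lowers a gene, so its median does not measure Wg signalling.

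In the destruction complex and signal relay list, 1 of 10 genes was called. Over all genes tested, 13.7% were called in the CR32027-IR1-labelled libraries against OreR and 5.15% in CR32027-IR2. Apc, a scaffold of the complex, fell in the CR32027-IR1-labelled libraries (log2 change -0.25; limma, adjusted p = 0.0468), and the call was lost without any library except OreR replicate 3 (0.0515 to 0.154). The relay gene dsh and the complex genes Axn, Apc2, sgg and CkIalpha passed in no comparison. The list named nuclear partners of Armadillo also holds genes such as gro, whose product acts with Pangolin as a co-repressor. None of its 10 genes, among them pygo, gro and nej, was called against OreR (limma, log2 changes -0.22 to 0.08 and -0.08 to 0.04). Of other Wnt ligand genes Wnt2, Wnt4, Wnt5 and Wnt6 were tested and 0 passed, with log2 changes of -0.06 to 0.19 in the CR32027-IR1-labelled libraries and -0.30 to 0.06 in CR32027-IR2. Of 4 other Wnt receptor genes, dnt, which encodes a Ryk family receptor, rose in the CR32027-IR1-labelled libraries (log2 change 0.29; limma, adjusted p = 0.0383), a call lost on leaving out any 1 of 7 libraries, all but OreR replicate 1 and CR32027-IR2 replicate 2 (0.0519 to 0.133).

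**Figure D5:**
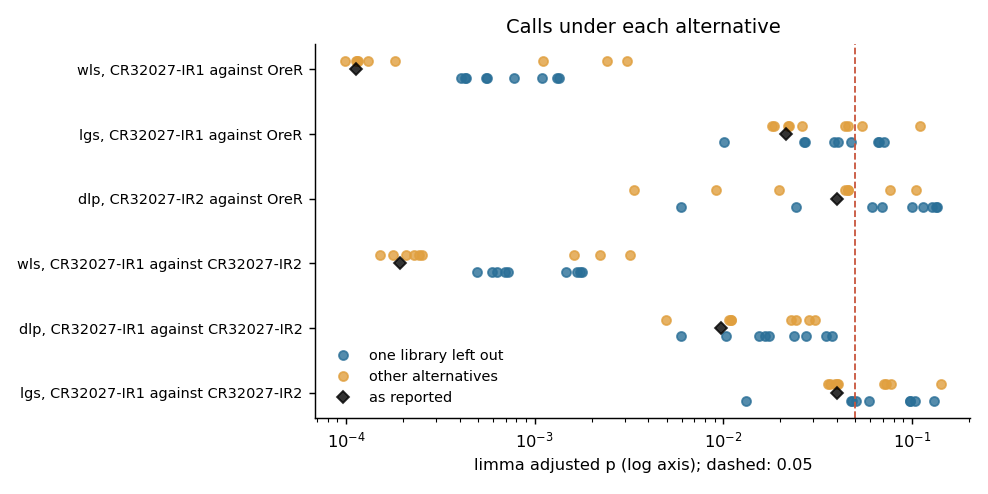
Adjusted p (log axis) of the 6 calls among the 9 genes, as reported (diamonds), with 1 library left out (blue) and under the other alternatives (yellow); the dashed line marks 0.05. Both wls calls stay at 0.00318 or less, while those of lgs and of dlp against OreR lie on both sides of the line.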

How the data were processed

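RNA of wing discs without nota was sequenced from 3 libraries per genotype, made from 100 ng of RNA with a stranded mRNA kit, per the labels' protocols. CASAVA 1.8.2, TopHat2 and the dm3 build are named, per the submitters' processing notes. Sources used here do not give the read counter, strand setting or annotation. For 15682 genes the authors deposited RPKM. Whole reads (within 0.01 read) were recovered from them for all 12436 genes above 0. For 7252 genes with introns, 78.0% of the recovered lengths lay within 2% of the genomic span in BDGP6.

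limma 3.58.1 (R 4.3.3, intensity trend) was fitted to log2(RPKM + 1) of the 7437 genes averaging 1 RPKM or more, all 9 libraries at once (6 residual degrees of freedom). P-values were adjusted over all genes by Benjamini-Hochberg and called under 0.05. Fold changes on this scale understate those of low genes. Alternatives covered pseudocount, filter, scaling, limma voom on reads, library weights, libraries fitted, a replicate block and each library left out. Reads carry no molecular identifiers, so counting error is a lower bound.

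The genes and lists were chosen with earlier results of these data known. Named are the 9 genes, CR32027, list genes called against OreR, the 2 nearest tested neighbours on each side and the 3 closest patterns of each called gene; Alg10, mRpL16, nested genes, Swim, sfl and uncalled list genes were added after values were seen. Of the lists, slmb, ttv and otk2 were not analysed here. Tables and plots were made with matplotlib 3.10.9, numba 0.67.0, scipy 1.17.1, pandas 2.3.3 and numpy 2.4.6 in Python 3.11.15.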

Additional observations from a re-analysis of the deposited data

Results flagged for a closer look

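For 3 genes the hairpin genotypes were called different from each other in the direct comparison, in which 21.9% of all genes tested were called. The log2 difference (CR32027-IR1 minus CR32027-IR2) was -0.42 for wls (limma, adjusted p = 0.000194), -0.42 for dlp (adjusted p = 0.00975) and -0.25 for lgs (adjusted p = 0.0399). The lgs call was lost on leaving out any 1 of 6 libraries (limma, adjusted p = 0.0502 to 0.13). For each of the 3 genes, all 3 CR32027-IR1-labelled libraries were lower than all 3 of CR32027-IR2. Over all genes tested, 39.3% were separated in this way in either direction. Against OreR, wls and lgs were lower in the CR32027-IR1-labelled libraries and dlp was higher in CR32027-IR2.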

How the results depend on the processing

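The wls calls passed under every alternative tried, with log2 changes of -0.50 to -0.48 against OreR and -0.44 to -0.40 against CR32027-IR2. Of the 9 genes, 1 rather than 2 was called in the CR32027-IR1-labelled libraries against OreR with library weights (whose estimation stopped before convergence) and with the replicate block, and 1 to 2 when each library was left out. In CR32027-IR2 against OreR 0 rather than 1 was called with no filter, with a filter at 5 RPKM (which removes dlp) and with the replicate block, and 0 to 1 when each library was left out. Between the hairpins 2 to 4 were called. Of 903 combinations of a gene result and an alternative, 820 left the result called or uncalled as reported, 76 lost a call and 7 gained one. Many of these results were uncalled as reported and could not lose a call, so the share lost among called results is larger. No called value changed sign, while values near 0 that were not called did in some alternatives. The CR32027 log2 change in CR32027-IR2 was -1.10 to -0.79 when each library was left out, and -1.78 to -0.98 under the other settings, the largest with voom and the smaller pseudocounts of 0.1 and 0.01. No pairing by replicate number was seen: deviations of same-numbered libraries correlated at -0.24 to 0.12, and those of differently numbered ones at -0.19 to 0.27. These values do not tell whether same-numbered libraries were prepared together. The replicate block ended the calls of lgs and of dlp against OreR. With it the wls calls and that of dlp between the hairpins passed (limma, adjusted p = 0.00307, 0.00318 and 0.0305).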
